A study of Mus musculus with 8 samples.

Results

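Expression of 9 serpin genes was followed in mouse macrophages treated with SLIT2. They were Serpinb1a, Serpinb2, Serpinb6a, Serpinb6b, Serpinb8, Serpinb9, Serping1, Serpina3g and Serpina3f, 9 of the 67 serpin genes (66 symbols) analysed here and of the 41444 genes in the expression table. They were named as members of the serpin family, most of them of clade B, and selected on a list drawn up with the rlog values of SLIT2 and vehicle libraries already known. The cells were bone marrow-derived macrophages of wild-type (WT) C57BL/6 mice, kept in medium with 100 ng/mL of the growth factor M-CSF, first on untreated dishes for 2 days and then on treated plastic for 6 days. In the SLIT2 group (4 libraries) the cells had received SLIT2 at 6 nM for 16 hours (SLIT2 is a secreted guidance protein that binds ROBO receptors). In the vehicle group (4 libraries) they had received vehicle control, of unstated composition. The values are the authors' regularized-log (rlog) values, on a log2 scale on which a difference of 1 is a doubling, and rlog shrinks differences at low counts. No read counts were used, so the depth of each library and its counting error are unknown.

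Serpins are protease inhibitors that work once. The target protease cuts an exposed loop of the serpin, and the serpin then changes shape and holds the protease in a stable complex. Clade B serpins act mostly inside cells, where they protect myeloid and lymphoid cells from proteases of their own granules and lysosomes or from those of neighbouring cells. Most clade A serpins and the C1 inhibitor (Serping1) are secreted, although Serpina3g acts inside cells in mice.

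Macrophage markers were abundant. All 8 macrophage markers (among them Csf1r, Lyz2 and Cd68) passed the filter described below, and 0 of 8 T and NK cell markers and 0 of 4 B cell markers did. Among the macrophage markers Fcgr1 was higher with SLIT2, by 1.17, and Cd68 fell by 0.25. Of 9 neutrophil markers 3 passed it and 1, Csf3r, was higher with SLIT2, by 0.68. The summed linear level of the 9 was 3760 to 4830 in SLIT2 libraries and 2480 to 2850 in vehicle libraries, with Ly6g listed at 0 and Elane and Mpo at -2.14 throughout. Csf3r made up most of that sum, and S100a8 (-0.16), Cxcr2 (-0.24), S100a9 (-0.26) and Ngp (-0.19) had lower means with SLIT2, for a median of -0.16 over the 3 that passed. The part of neutrophil RNA in the serpin results was not tested. Of 7 stromal and endothelial markers 5 passed, of which Col3a1 was higher, by 0.67, and their sum was 635 to 965 with SLIT2 and 548 to 863 with vehicle. Of 6 mast cell markers 5 were listed at 0. Kit, the other, passed and differed by -0.505 (limma adjusted p = 0.0869, 0.0382 with replicate number as a block). Replicates 3 and 4 stood apart from replicates 1 and 2 in both groups. Xist, the RNA of the inactive X chromosome, averaged 12.7 in replicates 3 and 4 and 7.54 in replicates 1 and 2, and Y-linked Ddx3y averaged 6.23 and 10.8 in the same order. This split held 46.7% of the sum of squares over all genes tested, more than treatment with 37.3%. Each pair is called a replicate set below. The labels do not tell whether replicates are separate cultures or mice, so p-values measure only the spread between these libraries, which may be technical. Sex cannot be told apart from anything else the sets differ in. In bulk RNA, fewer cells of a type and less RNA per cell cannot be told apart.

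Promoter sequences of 5 of the 9 genes are shown because the results below turn on these genes. The first are the 2 genes of the B6 group. Their SLIT2 values were below every vehicle value, as were those of Serpinb9, which is not printed. The others are a gene whose difference had opposite signs in the sets and a pair of neighbouring paralogs. Of that pair one was high in SLIT2 replicates 1 and 2. Each sequence is the RefSeq window on GRCm38.p6 from 250 bases before to 50 bases after the gene's start, on the gene's own strand. Capitals mark letters of 4 patterns, searched on both strands: TTCNNNGAA (the STAT motif), GGGA and CC with any 4 bases between them (NF-kB), TGANTCA (AP-1), and GAAA and GAAA with any 2 bases between them (the core of the interferon response element). Such a match is only a run of letters and was not tested for binding.
Serpinb6b: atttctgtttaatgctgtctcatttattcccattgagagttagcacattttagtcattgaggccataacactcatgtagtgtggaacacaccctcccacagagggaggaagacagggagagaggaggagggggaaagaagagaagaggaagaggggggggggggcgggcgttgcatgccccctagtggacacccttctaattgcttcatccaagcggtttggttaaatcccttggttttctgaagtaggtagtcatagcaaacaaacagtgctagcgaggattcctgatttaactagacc
Serpinb6a: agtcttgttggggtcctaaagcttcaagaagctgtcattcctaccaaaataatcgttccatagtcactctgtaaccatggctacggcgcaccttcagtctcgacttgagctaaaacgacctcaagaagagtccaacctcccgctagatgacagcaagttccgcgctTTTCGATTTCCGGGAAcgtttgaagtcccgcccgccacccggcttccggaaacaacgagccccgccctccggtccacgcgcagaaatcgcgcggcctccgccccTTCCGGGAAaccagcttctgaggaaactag
Serpinb8: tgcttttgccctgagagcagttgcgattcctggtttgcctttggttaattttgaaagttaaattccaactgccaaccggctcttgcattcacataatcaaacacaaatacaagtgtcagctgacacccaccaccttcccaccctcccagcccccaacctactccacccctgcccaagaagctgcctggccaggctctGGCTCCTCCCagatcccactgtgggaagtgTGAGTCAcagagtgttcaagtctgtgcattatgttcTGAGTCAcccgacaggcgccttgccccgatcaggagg
Serpina3g: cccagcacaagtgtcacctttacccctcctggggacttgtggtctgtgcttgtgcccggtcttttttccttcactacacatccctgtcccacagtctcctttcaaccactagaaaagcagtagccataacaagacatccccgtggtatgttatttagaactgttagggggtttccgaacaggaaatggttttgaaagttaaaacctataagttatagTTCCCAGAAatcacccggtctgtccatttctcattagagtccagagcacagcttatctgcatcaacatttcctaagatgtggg
Serpina3f: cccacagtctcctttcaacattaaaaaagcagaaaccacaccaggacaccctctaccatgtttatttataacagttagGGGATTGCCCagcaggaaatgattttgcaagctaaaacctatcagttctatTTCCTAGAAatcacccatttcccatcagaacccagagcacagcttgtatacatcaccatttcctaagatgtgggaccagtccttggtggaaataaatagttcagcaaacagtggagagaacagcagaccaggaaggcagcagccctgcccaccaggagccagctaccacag
The windows lie at chr13:32965011-32965310 (plus strand), chr13:34002745-34003044 (minus), chr1:107589756-107590055 (plus), chr12:104235897-104236196 (plus) and chr12:104214294-104214593 (plus), in the order printed. Serpinb6a and Serpina3f have a second RefSeq start that is not printed. Of the 9 genes, 7 had a window in the table.

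**Figure D1:**
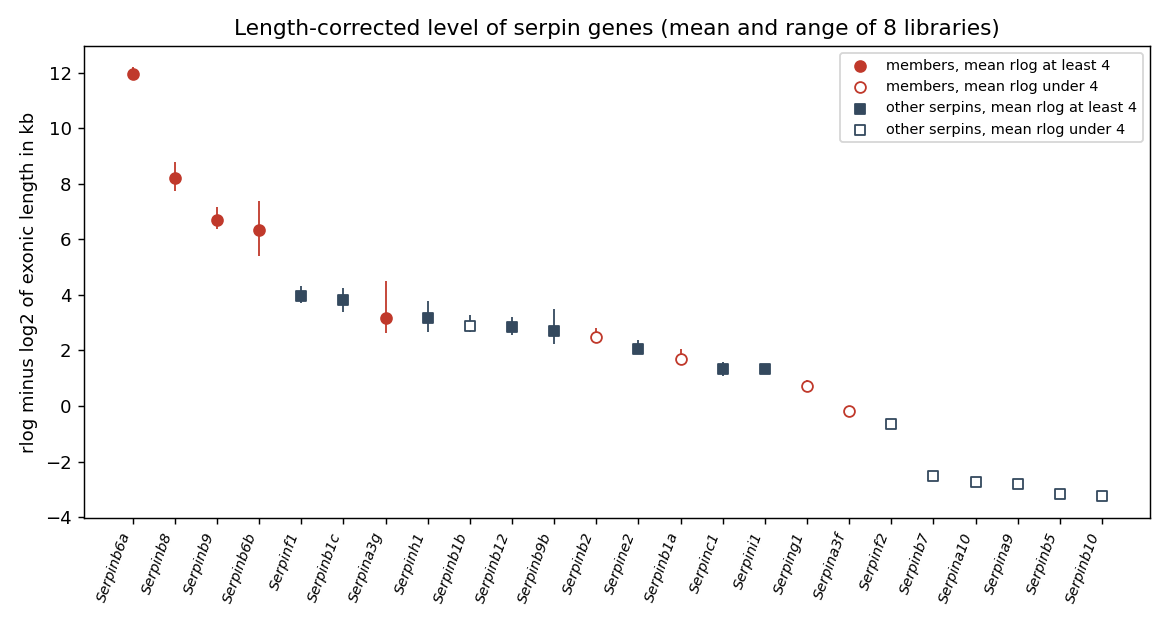
Length-corrected level (rlog minus log2 of exonic length in kb, y axis) of the 24 serpin genes analysed whose values vary, as the mean (points) and range (lines) of the 8 libraries. The highest 4 are Serpinb6a at 11.96, Serpinb8 at 8.22, Serpinb9 at 6.70 and Serpinb6b at 6.34.

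Of the 9 serpin genes, 4 of clade B stood at the top. Of the 67 serpin genes, 39 were listed at 0 in every library and 4 at another single value, 11 varied with a mean rlog below 4, and 13 reached the mean of 4 required for testing. A listed 0 does not show absence, since Tyrobp, which macrophages express, was also listed at 0 throughout. After subtraction of log2 of the exonic length in kilobases (GENCODE M21), the mean level was 11.96 for Serpinb6a, 8.22 for Serpinb8, 6.70 for Serpinb9, 6.34 for Serpinb6b, 3.16 for Serpina3g, 2.47 for Serpinb2, 1.68 for Serpinb1a, 0.73 for Serping1 and -0.17 for Serpina3f. In that order the ranges over the 8 libraries overlapped only between Serpinb9 and Serpinb6b and between Serpina3g and Serpinb2. Serpinb6a ranked 165 of the 11851 genes tested by uncorrected mean rlog. Since rlog pulls the libraries of a low gene together, the ranges at the low end, and so their overlap, may be understated.

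The members sit on 4 chromosomes. Serpinb1a, Serpinb6b, Serpinb9 and Serpinb6a lie in that order on chromosome 13 (32842092 to 34002794 in GRCm38), a stretch with 16 serpin symbols. Serpinb6b and Serpinb9 are 24.2 kb apart there, and Serpinb6a lies another 900.0 kb along. Serpinb2 and Serpinb8 lie on chromosome 1 with 54.5 kb between them, which holds part of Serpinb10, Serpina3f and Serpina3g on chromosome 12 with 15.1 kb, and Serping1 lies alone on chromosome 2 (84765387 to 84775444).

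The members were proposed with their differences between SLIT2 and vehicle known, so those differences are described here and carry no p-value. A call is limma's adjusted p under 0.05 in a fit over all 11851 genes tested (those whose rlog averages 4 or more). Of the 9 members 5 entered that fit, and 2 of these were called, both lower with SLIT2. Among all genes tested 13.3% were called, 6.58% lower and 6.76% higher. With replicate number as a block 3 members were called, all lower, where 33.0% of all genes were called and 16.4% were lower. With the set as a term 4 members were called, 1 of them higher, where 4652 of the 11851 genes were called. Within replicates 1 and 2 all 5 were, 2 of them higher, where 3962 of the 11851 genes were called. When each pair of duplicates was averaged to 1 sample with the set as a block, 1 member was called, where 688 of the 11851 genes were. At 3 of the 5 the SLIT2 and vehicle ranges were apart, against 20.5% of all genes tested. Nothing is read from these counts, since the members were listed with this contrast known. Serpina3g passed the filter through SLIT2 replicates 1 and 2 alone, so counts over the tested members are no evidence about the 9.

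Serpinb6b was the member with the widest difference. It encodes a mouse paralog of the human inhibitor SERPINB6 and has been described in mice as an inhibitor of granzyme A. Its rlog value was 6.75, 6.62, 6.57 and 6.89 in SLIT2 replicates 1 to 4, against 8.54, 8.42, 8.15 and 8.24 in vehicle replicates 1 to 4. Every SLIT2 library lay below every vehicle library. The group means were 6.71 ± 0.14 with SLIT2 and 8.34 ± 0.18 with vehicle (SD, n = 4 each), a difference of -1.63 (SE 0.11). Within the sets the difference was -1.47 (replicates 3 and 4) and -1.80 (replicates 1 and 2). The gene lies on chromosome 13, 32965209 to 32979067, plus strand (ENSMUSG00000042842). None of the 101-base windows of its transcripts (the read length) occurs in a transcript of another gene. Of its 31-base windows 6.83% do, with matches in Serpinb6a and Serpinb6c among others. The part of shared reads in its values was not tested. Its promoter window, printed first above, holds none of the 4 patterns.

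Serpinb6a, the mouse ortholog of human SERPINB6, which inhibits cathepsin G, was far more abundant and less altered. Its rlog value was 14.15, 14.17, 14.22 and 14.28 with SLIT2, against 14.62, 14.61, 14.53 and 14.56 with vehicle. The groups did not overlap, and the spread within each was narrow. The means were 14.2 ± 0.058 with SLIT2 and 14.6 ± 0.042 with vehicle (SD, n = 4 each), and the difference was -0.38 (SE 0.046). Serpinb6a (ENSMUSG00000060147, chromosome 13, 33917918 to 34002794, minus strand) shares 762 exonic bases with Nqo2, 584 with 1110046J04Rik and 241 with Ripk1, all on the opposite strand. Whether the authors counted by strand is unstated, so reads from these overlaps are uncertain. Nqo2 differed by -0.22 (limma adjusted p = 0.0959, 0.0228 with the replicate block), 1110046J04Rik by -0.28 (0.291, 0.0836 with the block) and Ripk1 by 0.22 (0.400, 0.00165 with the block). Their part in the Serpinb6a values was not tested. In its first window the letters TTCCGGGAA occur 77 bases before the start and again at base 21 after it. The upstream copy overlaps a match to the interferon core.

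Serpinb9, which blocks granzyme B and so protects cells that hold or meet it, followed the same direction with a smaller margin. It had rlog values of 8.41, 8.37, 8.19 and 8.28 with SLIT2, against 8.85, 8.96, 8.51 and 8.47 with vehicle. The highest SLIT2 value was below the lowest vehicle value. It averaged 8.31 ± 0.098 with SLIT2 and 8.70 ± 0.24 with vehicle (SD, n = 4 each), a difference of -0.39 (SE 0.12). Replicates 3 and 4 gave -0.26 and replicates 1 and 2 gave -0.52. The 5 tested serpins of the chromosome 13 stretch are these 3 members with Serpinb1c and Serpinb9b, and the SLIT2 mean was the lower one for each. Nothing is read from this, since the members were listed with this contrast known. Serpinb1c and Serpinb9b were not called without the block.

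**Figure D2:**
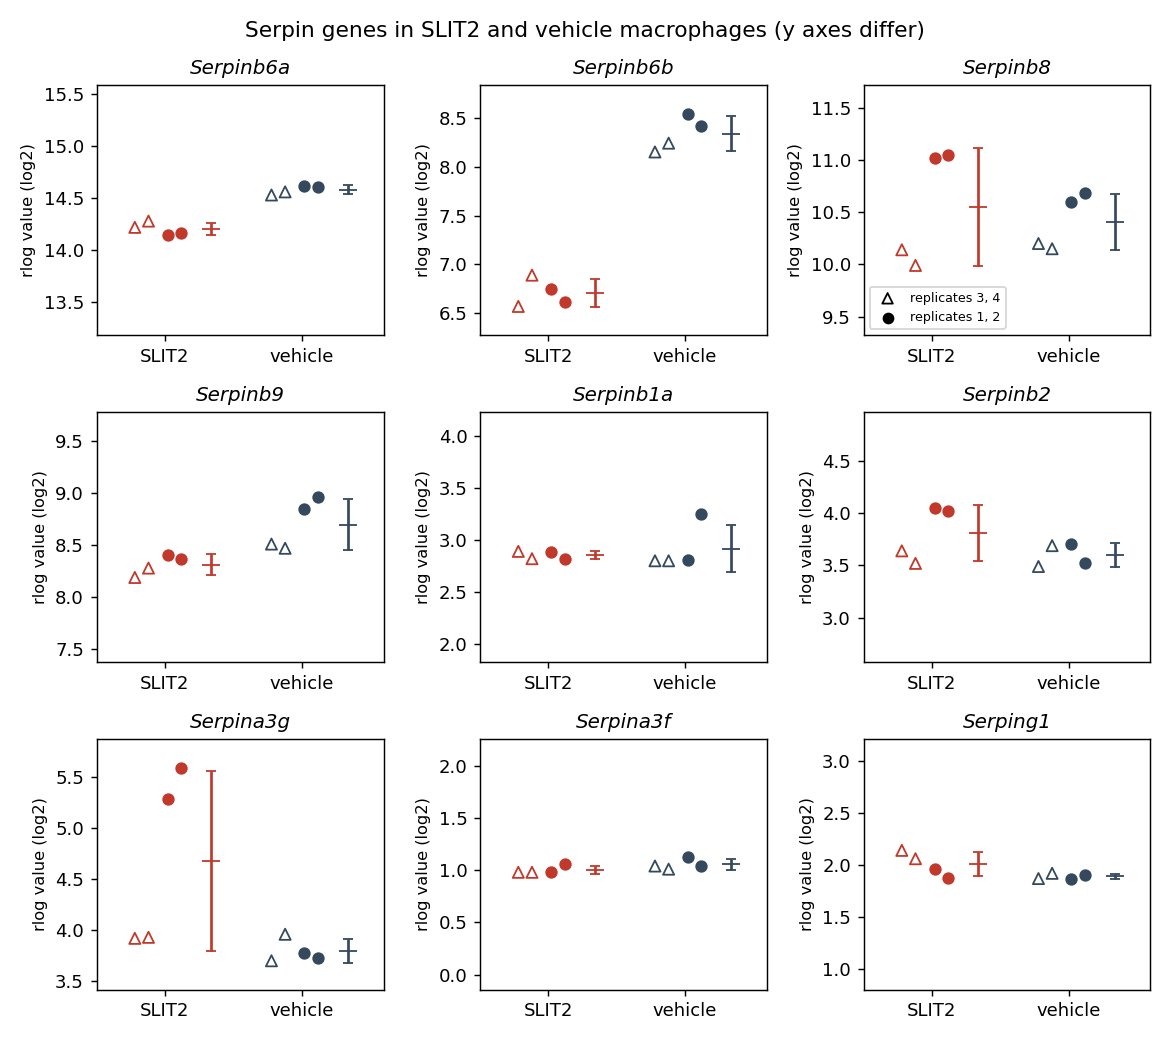
The rlog value (log2, y axis) of the 9 serpin genes in each SLIT2 library (red, left) and vehicle library (dark, right), with the mean and SD of each group beside the points. Open triangles are replicates 3 and 4 and filled circles are replicates 1 and 2. Serpinb6b lies between 6.57 and 6.89 with SLIT2 and between 8.15 and 8.54 with vehicle, while Serpina3g and Serpinb8 are highest in SLIT2 replicates 1 and 2.

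Serpina3g and Serpinb8 were higher with SLIT2 in replicates 1 and 2 and close to vehicle in replicates 3 and 4. Serpina3g, also called Spi2A, inhibits lysosomal cysteine cathepsins in mouse cells. Its rlog value was 5.29, 5.59, 3.92 and 3.93 in SLIT2 replicates 1 to 4, against 3.78, 3.73, 3.70 and 3.96 in vehicle replicates 1 to 4. SLIT2 replicates 1 and 2 were well above every vehicle library, whereas SLIT2 replicates 3 and 4 lay inside the vehicle range. The means were 4.68 ± 0.88 with SLIT2 and 3.79 ± 0.12 with vehicle (SD, n = 4 each), a difference of 0.89 (SE 0.39). It differed by 0.095 in replicates 3 and 4 and by 1.69 in replicates 1 and 2.

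Serpinb8, whose human ortholog inhibits the proprotein convertase furin, was higher with SLIT2 in one set and slightly lower in the other. It had 11.02, 11.05, 10.14 and 9.99 with SLIT2, against 10.60, 10.68, 10.20 and 10.15 with vehicle. The groups overlapped, with the SLIT2 values at both ends. The means were 10.6 ± 0.56 with SLIT2 and 10.4 ± 0.27 with vehicle (SD, n = 4 each), a difference of 0.14 (SE 0.27, 95% interval -0.48 to 0.76). Replicates 3 and 4 gave -0.11 and replicates 1 and 2 gave 0.40. Over all libraries it was -0.014 without SLIT2 replicate 1 and -0.024 without SLIT2 replicate 2.

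The difference between the sets was also fitted, as the interaction of treatment and set in a limma fit over all genes. The rule for the members does not name this contrast, but the members were listed with the same 8 values known. For Serpina3g it was -1.59 (SE 0.19), the SLIT2 effect in replicates 3 and 4 minus that in replicates 1 and 2. This is a description without a p-value, because the gene passed the filter only through the SLIT2 libraries of replicates 1 and 2. Serpinb8 gave -0.51 (SE 0.078, limma adjusted p = 0.0146). In that fit 4.40% of all genes were past the threshold (2.28% with a negative and 2.12% with a positive value). Serpinb6a gave 0.16 (95% interval 0.061 to 0.26, limma adjusted p = 0.0836), Serpinb9 0.26 (0.037 to 0.48, 0.193) and Serpinb6b 0.33 (-0.047 to 0.71, 0.322). The test rests on the spread within duplicates and, if each set is a single source, compares those sources. Serpinb8 did not pass without SLIT2 replicate 1 (0.0528), SLIT2 replicate 2 (0.0607) or vehicle replicate 1 (0.0631).

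**Figure D3:**
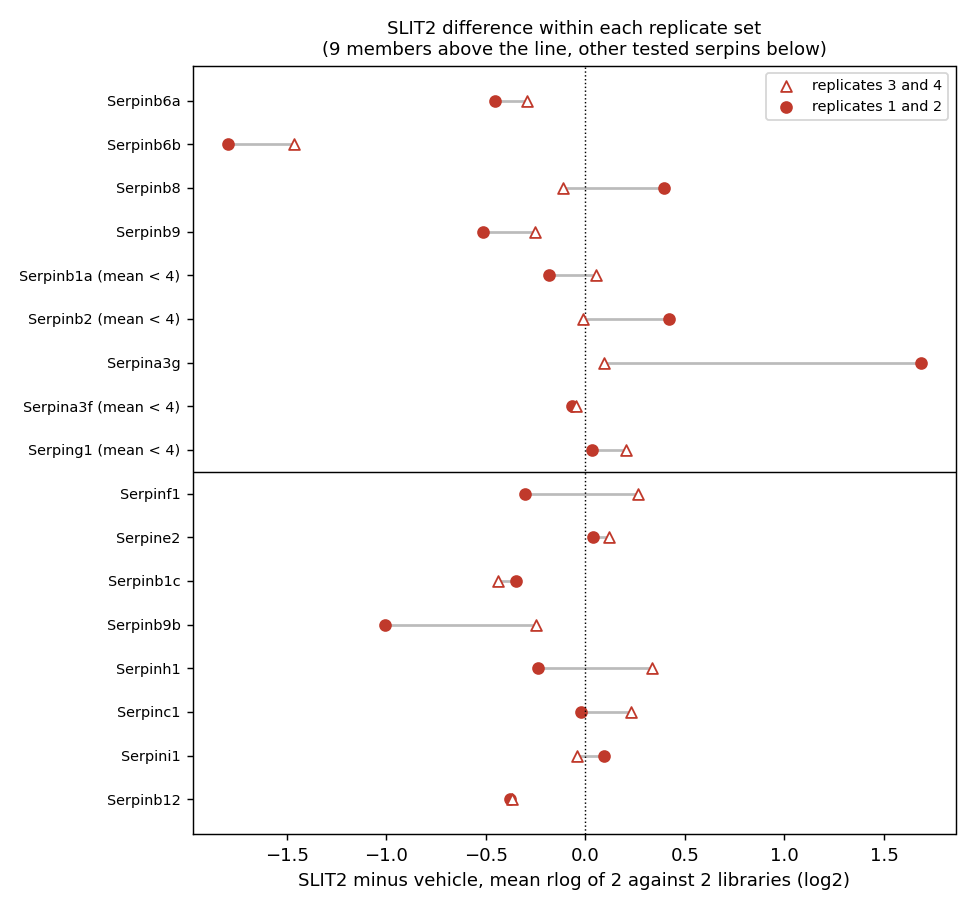
SLIT2 minus vehicle (x axis, log2, means of 2 against 2 libraries) within replicates 3 and 4 (open triangles) and replicates 1 and 2 (filled circles), for the 9 members above the line and the 8 other tested serpins analysed below it. Serpina3g stands at 0.095 and 1.69 and Serpinb6b at -1.47 and -1.80 in that order of sets.

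The sets also differed in the level of some members. In a limma fit with treatment and set, replicates 3 and 4 were lower than replicates 1 and 2 for Serpinb8, with a difference of -0.72 (SE 0.094, limma adjusted p = 2.75e-04) and for Serpinb9, with -0.29 (SE 0.065, limma adjusted p = 0.00513). These are 2 of 5 tested members, where 57.0% of all genes passed (31.2% lower and 25.8% higher). The set difference of Serpinb8 was -0.97 among SLIT2 libraries and -0.47 among vehicle libraries. For Serpinb9 these values were -0.16 and -0.42. Serpina3g differed by -1.52 between the sets among SLIT2 libraries and by 0.075 among vehicle libraries. Serpinb6b differed by -0.12 (limma adjusted p = 0.319, and 0.0372 without SLIT2 replicate 4) and Serpinb6a by 0.010 (limma adjusted p = 0.831).

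Serpina3f, a close paralog of Serpina3g next to it on chromosome 12, stayed near the bottom of the scale. It had 0.98, 1.06, 0.98 and 0.98 with SLIT2, against 1.13, 1.04, 1.04 and 1.01 with vehicle, and was below the filter. Its highest value was in vehicle replicate 1, where Serpina3g stood at 3.78. The 2 promoter windows align over 202 bases with 83.7% identical, and both carry a match to TTCNNNGAA, at 33 bases before the start in Serpina3g and 121 before it in Serpina3f. This pattern occurs in 8.30% of the 32851 windows of this length. Of Serpina3g's 101-base transcript windows 3.36% occur in other genes and of its 31-base windows 28.4%, in other genes of the Serpina3 group, so its reads may be shared with paralogs and its values are uncertain to that extent. Serpinb8's window holds TGAGTCA at 23 bases before the start and again at base 14, a pattern found in 7.81% of windows, and a match to the NF-kB pattern, found in 20.7%. The Serpinb9 window, at chr13:33004291-33004590, holds 1 match to the interferon core, found in 3.44% of windows, 46 bases before the start.

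The other 3 members were also low and untested. Serpinb2, the urokinase inhibitor known as plasminogen activator inhibitor type 2, had 4.05, 4.02, 3.64 and 3.52 with SLIT2, against 3.71, 3.52, 3.49 and 3.69 with vehicle. SLIT2 replicates 1 and 2 were above all vehicle libraries, and SLIT2 replicates 3 and 4 were within their range. Its untested difference was -0.010 (replicates 3 and 4) and 0.42 (replicates 1 and 2). It shares 291 exonic bases with Serpinb10 on the same strand. Serpinb1a, an inhibitor of neutrophil elastase, proteinase 3 and cathepsin G, had 2.88, 2.82, 2.89 and 2.82 with SLIT2, against 2.81, 3.25, 2.80 and 2.80 with vehicle. Vehicle replicate 2 alone stood apart. Serping1, which stops C1r and C1s at the start of the complement cascade, had 1.96, 1.88, 2.14 and 2.06 with SLIT2, against 1.87, 1.90, 1.87 and 1.92 with vehicle. Its groups overlapped, and its difference of 0.12 was about the size of the SD of 0.11 among SLIT2 libraries.

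Among the 8 other tested serpins analysed, 0 passed limma, where 13.3% of all genes did. With the replicate block 3 passed, all lower, where 33.0% of all genes passed and 16.4% were lower. They were Serpinb1c with a difference of -0.40 (limma adjusted p = 0.131, 0.0101 with the block), Serpinb12 with -0.38 (0.0641, 0.0238 with the block) and Serpinb9b with -0.63 (0.144, 0.0315 with the block). None of the 3 passed when duplicates were averaged (limma adjusted p = 0.0969 for Serpinb1c, 0.0992 for Serpinb12 and 0.192 for Serpinb9b). Serpinb9b, a paralog of Serpinb9, differed by -0.25 in replicates 3 and 4 and by -1.01 in replicates 1 and 2. That gap between the sets missed the threshold (0.76, limma adjusted p = 0.0568). Without vehicle replicate 3, Serpinb9b (limma adjusted p = 0.0440) and Serpinb12 (0.0416) passed over both sets. The other 5 gave small differences. Serpine2, which encodes protease nexin-1, differed by 0.080 (95% interval -0.23 to 0.39) and the antithrombin gene Serpinc1 by 0.11 (-0.17 to 0.38). Serpinf1, a serpin that does not inhibit proteases, differed by -0.020 (-0.35 to 0.31), the collagen chaperone gene Serpinh1 by 0.050 (-0.65 to 0.75) and neuroserpin (Serpini1) by 0.028 (-0.18 to 0.23).

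The proteases these inhibitors meet were expressed unevenly. Several granule proteases of neutrophils and killer cells held single values, with Ctsg, Prtn3 and Gzma listed at 0 and Elane and Gzmb at -2.14 in every library. A listed 0 does not show absence, as said above. Gzmm, another granzyme, varied below the filter with a mean of 3.385. Of 36 genes of proteases and their close partners, 17 were tested, of which 4 were higher with SLIT2 and 2 lower (10 and 2 with the replicate block), where 13.3% of all genes were called (33.0% with the block). The count of 6 was 3 without SLIT2 replicate 2 and 3 without vehicle replicate 1. Their median difference was 0.20, against 0.0020 over all genes tested. Ctsc, which encodes the cathepsin that activates granule serine proteases, averaged 14.8 ± 0.34 with SLIT2 and 13.3 ± 0.41 with vehicle (SD, n = 4 each), a difference of 1.51 (SE 0.23, limma adjusted p = 0.00365). Casp4, the caspase sensor of cytosolic lipopolysaccharide, was higher by 1.16 (limma adjusted p = 7.1e-05), Ctsh by 0.31 (0.0238) and Casp1 by 0.16 (0.0370). Plau, the gene of urokinase and so of the target of Serpinb2, fell by 0.91 (SE 0.19, limma adjusted p = 0.0181), and Plaur, its receptor, fell by 1.17 (SE 0.11, limma adjusted p = 4.34e-04). Ctsl and Ctsb, cathepsins of the kind that Serpina3g inhibits, differed by 0.62 (limma adjusted p = 0.121, 1.72e-04 with the block) and 0.19 (0.213, 0.0517 with the block). Furin differed by 0.28 (limma adjusted p = 0.169, 0.00873 with the block) and C1ra by 0.66 (0.254, 0.00148 with the block).

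Genes listed as protease inhibitors outside the serpin family were called in both directions, with Anxa1 alone lower without the block. Of 21 genes asked for, 20 were found and 10 tested, of which 3 were higher and 1 lower (3 and 6 with the replicate block), where 13.3% of all genes were called (33.0% with the block). Their median difference was -0.13, and 2 were called with averaged duplicates. Spint1, a membrane inhibitor of serine proteases, was higher by 1.08 (limma adjusted p = 0.0390). Wfdc17, which encodes a small WAP-domain protein, was higher by 0.90 (limma adjusted p = 0.00221). Cst7, which encodes cystatin F, an inhibitor of the cathepsin encoded by Ctsc, was higher by 0.58 (SE 0.11, limma adjusted p = 0.0119). Anxa1, an annexin that is better known for curbing inflammation than for inhibiting proteases, fell by 0.72 (limma adjusted p = 1.05e-04).

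**Figure D4:**
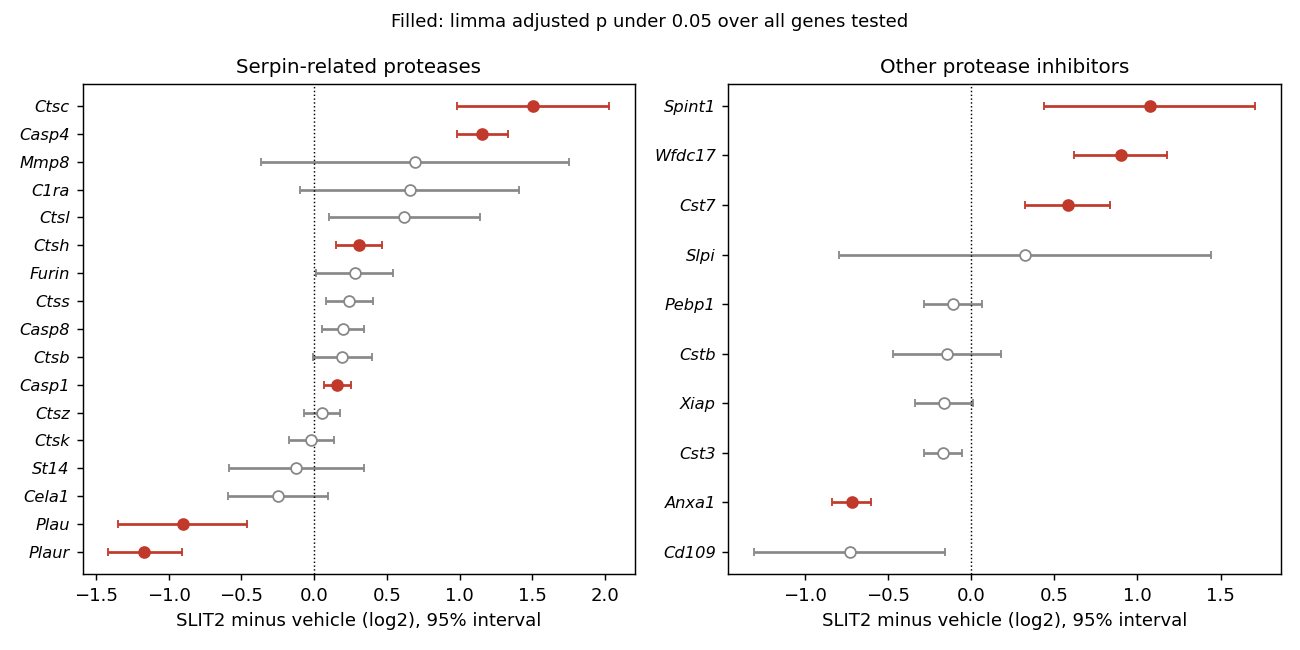
SLIT2 minus vehicle (x axis, log2) with its 95% interval for the tested proteases and partners (left) and the tested inhibitors of other families (right). Filled red points are the 6 and 4 genes with a limma adjusted p under 0.05, and Ctsc at 1.51 and Plaur at -1.17 are the ends of the left panel.

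The genes that followed a member most closely over the 8 libraries were found for the member with the widest difference in each direction, leaving out clone and model names. For Serpinb6b they were Nedd9 (Pearson r = 0.996), Ptpra (0.995) and St3gal5 (0.994). St3gal5 differed by -1.15 in replicates 3 and 4 and by -1.31 in replicates 1 and 2, where Serpinb6b differed by -1.47 and -1.80. It was picked for likeness to Serpinb6b over the same libraries, so its fall in both sets is no separate result. For Serpina3g they were Stxbp3a (0.989), Mvp (0.986) and Rab20 (0.982). Since they were picked for likeness to Serpina3g over the same libraries, their rise with SLIT2 mainly in one set is no separate result. Rab20 was higher by 0.050 in replicates 3 and 4 and by 0.53 in replicates 1 and 2. The values are descriptions over 8 libraries that share treatment and set.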

How the data were processed

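RNA-seq was measured in 4 SLIT2 and 4 vehicle libraries. Per the labels' protocols, each came from 300 ng of total RNA by a stranded mRNA kit and was read as 101-base paired ends. FastQC, SAMtools, Picard, STAR, Salmon and DESeq2 are named with mm10/GRCm38, per the submitters' processing notes. Their roles, the annotation and the strand setting were not given. The deposited values are rlog values on a log2 scale, given to 2 decimals and not pooled. They correct for library size and shrink the differences between libraries at low genes, and depth is unknown.

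Genes with a mean of at least 4 entered limma fits (version 3.58.1, R 4.3.3, eBayes with a trend, two-sided, Benjamini-Hochberg, threshold 0.05) with treatment only. Interaction and set fits were run on the same 11851 genes. Steps were tested on simulated data. Named were all members, other tested serpins (1 serpin is not reported here), called list genes and the 3 closest genes. Members, lists, sets and promoter patterns were chosen with earlier results of these data known. Same-numbered samples of the 2 groups deviated together (correlations 0.637, 0.671, 0.753 and 0.587 across genes). The main fits did not pair them, and replicate number was a block only among the alternatives. Correlations between differently numbered samples were not computed, so these values do not show pairing by number. Annotation was GENCODE M21, and promoters were RefSeq on GRCm38.p6. Identity was computed with Biopython 1.88 and figures with matplotlib 3.10.9. Alternatives were a block or set term, single sets, averaged duplicates, other filters and scalings, no variance trend, and each library left out. A filter on the higher group mean was added after seeing the data.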

Additional observations from a re-analysis of the deposited data

Results flagged for a closer look

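The SLIT2 difference was unlike in the replicate sets at Serpinb8 (-0.505, replicates 3 and 4 minus replicates 1 and 2), by the limma interaction given above, which 3 libraries decide. The same quantity at Serpina3g (-1.59) is a description, since the gene passed the filter only through the SLIT2 libraries of replicates 1 and 2. In single groups of 4 libraries, 1 value was flagged by Dixon's criterion at Serpinb1a (3.25 in a vehicle library), Serpina3f (1.06 in a SLIT2 library) and Serpinc1 (4.18 in a vehicle library). At Serpina3f the other SLIT2 values are all 0.98, and with such ties the criterion flags any gap, however small. Chance flags about 1 in 20 groups, and 34 groups were looked at.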

How the results depend on the processing

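The rlog scale and an unknown depth limit what can be read from Serpinb1a, Serpinb2, Serping1 and Serpina3f, and with 4 libraries a group in close pairs each test rests on few independent samples. The 1581 calls over all genes became 3912 with the replicate block, 4652 with a set term, 3962 within replicates 1 and 2, 2880 within replicates 3 and 4 and 688 with averaged duplicates, and ranged from 1021 (without SLIT2 replicate 2) to 1254 with a library left out. Member calls (2, both lower) became 4 with a set term (1 higher), 5 within replicates 1 and 2 (2 higher), 3 with the replicate block and 1 with averaged duplicates. Calls among other serpins (0) became 3 with the block or a set term, 1 within either set, 1 without the variance trend or with median centring, and ranged from 0 to 2 with a library left out. Protease calls (6) became 12 with the block, 13 with a set term, 15 within replicates 1 and 2 and 9 within replicates 3 and 4, and ranged from 3 to 6. Calls among other inhibitors (4) became 9 with the block, with a set term and within replicates 1 and 2, 8 within replicates 3 and 4 and 2 with averaged duplicates, and ranged from 3 to 4. Members past the threshold of the interaction (2, Serpina3g through its filter) became 1 with a mean of at least 6, where Serpina3g is untested, or without the trend, where Serpinb8 had an adjusted p of 0.0607, and ranged from 1 to 2. Members that differed between the sets ranged from 2 to 3. Signs of uncalled differences turned for Serpinc1 (-0.020) and Serpinh1 (-0.235) within replicates 1 and 2, for Serpini1 (-0.040) and Serpinf1 (0.265) within replicates 3 and 4, and for Serpinf1 with quantile normalization (0.008). With 1 library left out they also turned, over ranges of -0.018 to 0.032 for Serpinb6a between sets, -0.152 to 0.225 for Serpinh1, -0.025 to 0.068 for Serpini1, -0.135 to 0.065 for Serpinf1 and -0.008 to 0.175 for Serpine2. Where no cause follows from fewer samples or genes, the cause was not tested.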
